A study of Pseudotsuga menziesii with 26 samples.

Results

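The 6 Air Control seedlings of Douglas-fir (Pseudotsuga menziesii) are described here, 6 of the 26 seedlings sequenced in the study. They were the replicates that the titles number 3, 5, 8, 11, 14 and 15, chosen by their treatment label, with 1 library of poly(A) RNA per seedling. The seedlings were half- or full-siblings, so they shared at least 1 parent, and had been assigned to their atmosphere at random. For 2 weeks, on 5 days a week and for 6 h a day, they received air passed through charcoal, Purafil and HEPA filters and neither diesel exhaust nor cerium. The same filtered air ran through the chamber between those sessions. They stood in shared trays in 1 exposure chamber of 984 L under LED light for 16 h a day, in December, when the needles were dormant. The RNA came from lateral-stem needles that had grown in 2011 and were sampled in 2012. The study also holds 20 seedlings kept in exhaust, which are not used here. With 1 chamber for all 6, the spread below is that between seedlings in a shared setting, library preparation and sequencing included, since each seedling gave a single library.

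Conifer needles live through several seasons, so overwintering needles of the previous year keep their photosynthetic cells while growth rests. In green leaves, a small number of genes for the photosynthetic machinery usually supplies a large part of the messenger RNA, and most other genes are expressed at low levels. Seedlings that share a mother but not a father differ at many loci, and conifers, which outcross, are highly variable within species. The files give transcripts by identifier without a gene name, so needle markers could not be looked up and no transcript below carries a function. Lengths are those implied by the deposited values, and no sequence was used. In whole needles, fewer cells of a type and less RNA per cell cannot be told apart.

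The libraries held between 24924192 counts in replicate 11 and 43560508 in replicate 14. Libraries 11 and 14 both stood apart from the rest in several of the measures below, such as the number of transcripts detected. Values without them are therefore given where they matter. In others, such as the share of the single most abundant transcript, only replicate 14 did. No pair of libraries matched within sampling noise, with a chi-square per degree of freedom of at least 52.2, so each counted as 1 sample. That value was computed on library totals alone, so the most abundant transcripts weigh most in it. It does not measure the mismatch of a typical transcript. The spread was described within a single group. No contrast was tested, and no p-value is given.

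The needle RNA was concentrated in few transcripts, and the seedlings differed widely in how few. The single most abundant transcript took 12.4%, 5.75%, 10.6%, 11.5%, 32.3% and 18.1% of the counts in replicates 3, 5, 8, 11, 14 and 15. The 10 most abundant transcripts of each library took 44.7% ± 18.0 (SD, n = 6), from 28.6% in replicate 5 to 79.5% in replicate 14. Without replicate 14 the highest was replicate 11, at 46.6%, and the mean was 37.8% ± 6.51 (SD, n = 5). A library reached 50% of its counts with 2 transcripts in replicate 14 and 14 in replicate 11. In the other 4 libraries it took 42 to 79 transcripts. For 90% of the counts, 160 transcripts were enough in replicate 14 and 2351 in replicate 11, where the other 4 took 5184 to 5471. The effective number of transcripts, the exponential of the Shannon entropy of the counts, ran from 26.5 in replicate 14 through 263 in replicate 11 to 1005 in replicate 5.

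**Figure D1:**
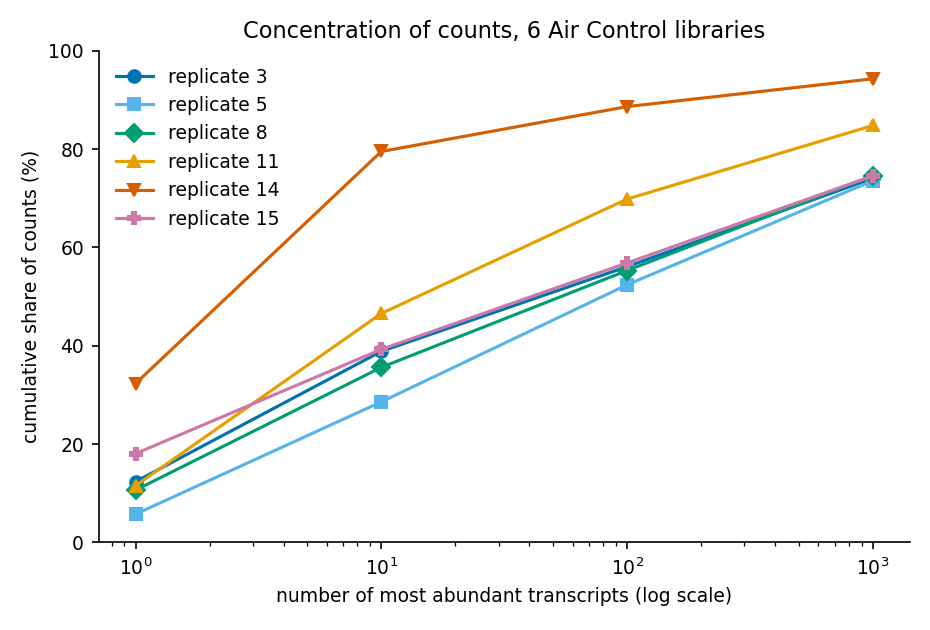
Cumulative share of the counts (%) held by the 1, 10, 100 and 1000 most abundant transcripts (log axis) of each of the 6 Air Control libraries, 1 line per library. Replicate 14 lies highest at every rank, with 88.6% in its top 100, replicate 11 is next from the top 10 on, and the other 4 lie within 52.4% to 56.8% at the top 100.

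Levels of different transcripts are compared per length, in RPKM (reads scaled to 1000000 counts and to 1000 nt of transcript). By mean RPKM the most abundant was psme_t046227, a transcript of 1024 nt. Its RPKM was 23579, 43292, 25613, 112610, 37066 and 25538 in replicates 3, 5, 8, 11, 14 and 15, or 44616 ± 34204 (SD, n = 6). Replicate 11 lay well above the other 5 on this scale, and the transcript ranked between the first and the fifth place in every library. Values were also scaled by the trimmed mean of M-values (TMM), which reads the level of most transcripts, and are then given as scaled CPM (a count divided by the TMM-scaled library size and multiplied by 1000000). In scaled CPM replicates 11 and 14 were both above the other 4, at 149785 and 123483 CPM, where the others had 16904 to 30437. Next came psme_t002753 (4295 nt), with RPKM of 28772, 13391, 24774, 19286, 50162 and 42044 in the same order. It was the top transcript by share of counts in replicates 3, 5, 8 and 15, and its share averaged 12.8% ± 5.98 (SD, n = 6).

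Short transcripts filled most of the next places. The 475 nt transcript psme_t108323 stood at 27720 ± 7106 RPKM and the 631 nt transcript psme_t077439 at 27672 ± 5556 RPKM (SD, n = 6 each). Both differed less between seedlings than the leaders did. Their share of counts was 1.90-fold and 1.63-fold higher in the highest than in the lowest library. After TMM scaling the gaps were 5.01-fold and 4.24-fold, still below the 8.86-fold of psme_t046227 and the 17.8-fold of psme_t002753. On that scale psme_t089477 and psme_t083272, listed next, were more even, at 2.72-fold and 2.84-fold. The 556 nt psme_t089477 had 22955 ± 9669 RPKM, the 516 nt psme_t097922 had 21733 ± 9101 and the 4727 nt psme_t001906 had 17016 ± 6029 (SD, n = 6 each). The last 3 of the top 10 were psme_t083272 (592 nt) at 15793 ± 6838 RPKM, psme_t085274 (580 nt) at 12607 ± 2770 and psme_t127053 (418 nt) at 10432 ± 8641 (SD, n = 6 each). Of these, psme_t127053 was the least even, at 1897 RPKM in replicate 14, 2482 in replicate 15 and 25655 in replicate 11.

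These leaders were largely shared by the seedlings. Of the 100 transcripts with the highest RPKM in each library, 66 were among the top 100 of all 6, and 145 were among the top 100 of at least 1. Pairs of libraries shared 77 (replicates 11 and 15) to 88 (replicates 5 and 8). The 66 common ones took 46.2% of the counts in replicate 5 and 84.0% in replicate 14. Of the top 1000, 578 were common to all 6 libraries.

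Across the 6 libraries, 16 transcripts reached a share of 1% somewhere, and 5 reached it in all 6 libraries. They are termed dominant here and were 418 to 10095 nt long. Together they took 42.1%, 32.4%, 38.8%, 51.9%, 81.1% and 41.9% of the counts in replicates 3, 5, 8, 11, 14 and 15. In replicate 14 a few of them were high. The 8738 nt transcript psme_t000146 held 32.3% of its counts, against 2.82% to 5.26% in the other 5 libraries. The 1975 nt transcript psme_t020372 held 5.24% there and 0.522% to 0.924% elsewhere. For 6 of the 16, the share in replicate 14 was above the median of the other libraries, and for 10 it was below. That split rests on the scale, since shares add up to 100% and psme_t000146 alone took 32.3%. In scaled CPM replicate 14 was above the median of the others for 15 of the 16, with psme_t127053 as the exception. The 16 were picked by a share of 1% in any library, replicate 14 included, and psme_t020372 reached it there alone. The count is thus not independent of that choice and describes these 16 only. The 6 with a higher share were psme_t002753, psme_t000146, psme_t001906, psme_t046227, psme_t020372 and, named after its values were seen, psme_t000085 (10095 nt).

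In replicate 11 another transcript stood out. The 4216 nt psme_t002954 held 10.4% of the counts there and 0.156% to 0.592% in the other 5 libraries. Its counts were 2595221 in replicate 11 and at most 190455 elsewhere. The leader by RPKM, psme_t046227, held 11.5% in replicate 11 and 2.41% to 4.43% elsewhere. Another of the 16, psme_t030844 (1468 nt), took 2.15% in replicate 5 and 2.26% in replicate 11 but 0.394% in replicate 14. It averaged 1.27% ± 0.834 (SD, n = 6). In scaled CPM replicate 14 had 12812 of it, near the 14786 of replicate 5 and 1.17-fold the median of the other 5 libraries, and replicate 11 was highest at 29381.

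**Figure D2:**
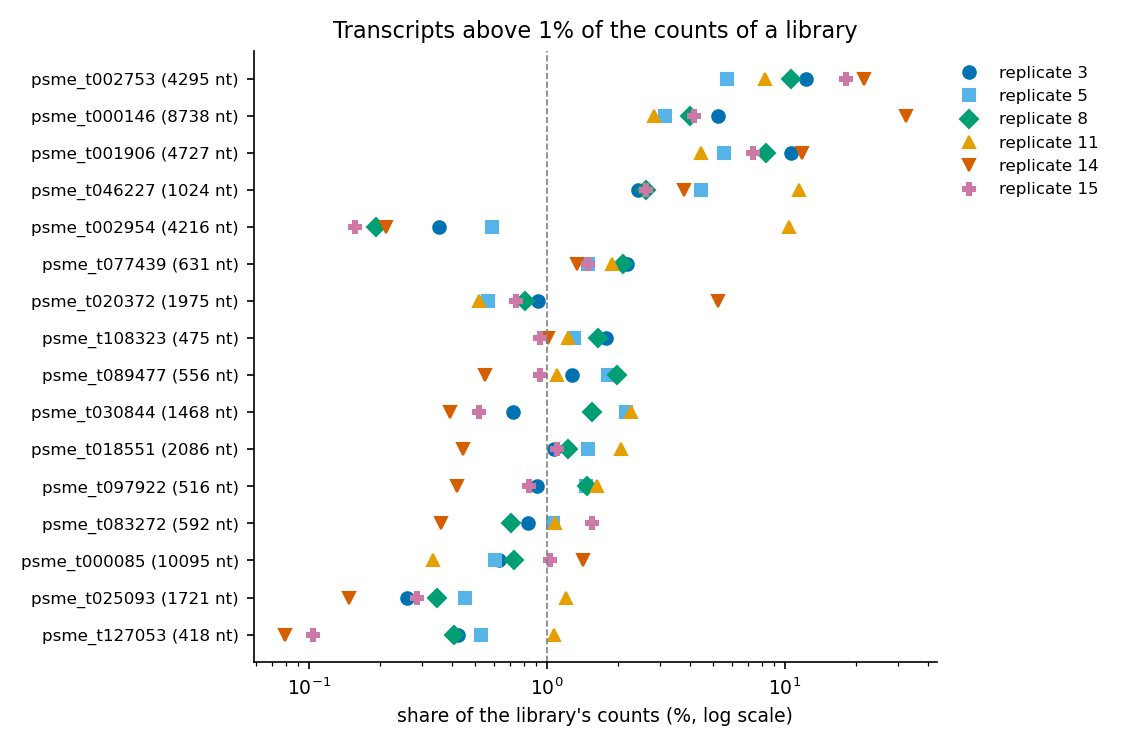
Share of the counts (%, log axis) of the 16 dominant transcripts in each Air Control library, with the dashed line at 1%, 1 symbol per library, and the length of each transcript in nt. The points of psme_t000146 and psme_t020372 lie far right in replicate 14 and that of psme_t002954 far right in replicate 11.

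Outside the dominant transcripts, the libraries were closer in shape but did not become alike. There remained 20694782, 21754494, 18221558, 11991159, 8240491 and 20934938 counts in replicates 3, 5, 8, 11, 14 and 15. Of these, the next 10 transcripts took 9.98% ± 2.83 (SD, n = 6), highest in replicate 14 at 14.8% and next in replicate 11 at 11.9%. The effective number of transcripts outside the dominant ones was 1868 in replicate 14 and 2101 in replicate 11, and 3347 to 4526 in the other 4 libraries.

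At least 1 count was found for 78329 of the 173882 transcripts of the table in these 6 libraries together. A single library detected 51271 ± 7314 transcripts (SD, n = 6), at 57735, 55480, 54646, 42996, 40920 and 55847 in replicates 3, 5, 8, 11, 14 and 15. The deepest library, replicate 14, detected the fewest. Without replicates 11 and 14 the mean was 55927 ± 1306 (SD, n = 4). Between 10.9% and 13.6% of the transcripts detected in a library rested on exactly 1 count. At 10 counts or more, 22479 to 33114 transcripts remained per library. Thinning every library to the lowest total, 24924192 counts, left an expected 38054 transcripts in replicate 14 and 42996 in replicate 11, and 53194 to 54807 in the other 4. When the dominant transcripts were set aside and the rest thinned to 8240491 counts, the expected numbers were 40904 in replicate 14 and 41051 in replicate 11, and 47491 to 49965 in the other 4. Replicates 11 and 14 therefore remained lowest at equal depth outside the dominant transcripts too.

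**Figure D3:**
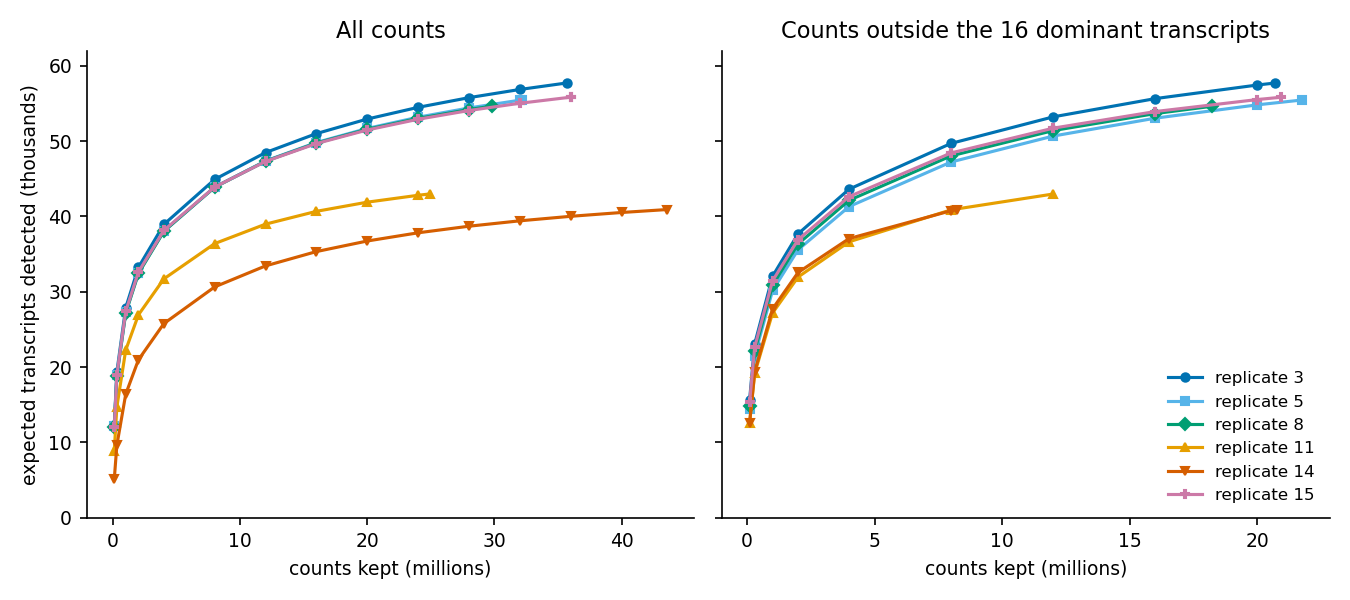
Expected number of transcripts detected against the counts kept when each Air Control library is thinned, with all counts on the left and with counts outside the 16 dominant transcripts on the right. Replicates 11 and 14 run below the other 4 in both panels, and no curve has levelled off at its full depth.

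Abundant transcripts were detected in most libraries and scarce ones in few. This follows in part from counting, since a transcript cannot be found in more libraries than it has counts. All 6 libraries detected 31465 transcripts, 40.2% of the 78329, and these held between 99.5% and 99.9% of the counts of a library. A further 17183 transcripts, 21.9%, were detected in 1 library alone, with a median of 1 count. A median of 474 counts, summed over the libraries, stood behind the transcripts found in all 6, and of 33 behind those found in 5. On average, 2 libraries together detected 61533 transcripts and 5 detected 75465, so the last library added 2864. Replicate 3 held 4431 transcripts that no other library detected, replicate 11 only 1099 and replicate 14 only 1541. Conversely, 3905 transcripts were missing from replicate 14 alone and 2271 from replicate 11 alone, where each of the other 4 alone lacked 259 to 362. A transcript found in 1 library alone was seldom more than scarce there, with at least 10 counts in 11 to 88 transcripts per library and at least 100 counts in 1 transcript of replicate 3 and 4 of replicate 15.

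Most detected transcripts lay at low levels. The median RPKM over detected transcripts was 0.418 to 0.435 in 5 libraries and 0.208 in replicate 14. The 90th percentile was 6.94 to 8.49 RPKM in those 5 and 2.84 in replicate 14, and the 99th was 71.3 to 95.9 and 34.2. An RPKM of at least 1 was reached by 20515, 19697, 19600, 14721, 8518 and 19825 transcripts in replicates 3, 5, 8, 11, 14 and 15. Above 1000 RPKM there were 26 transcripts in replicate 14 and 47 to 74 in the other 5 libraries. That small class held 47.8% to 65.5% of the counts in those 5 and 82.5% in replicate 14. By contrast, 8166 to 13709 detected transcripts per library were below 0.1 RPKM, and together they held at most 0.113% of the counts. RPKM is taken relative to all counts of a library, so the low values of replicate 14 include the room taken by its dominant transcripts. The TMM scaling gave factors of 1.43, 1.46, 1.42, 0.770, 0.307 and 1.43 in replicates 3, 5, 8, 11, 14 and 15.

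Transcript length moved with detection and with the share of counts. A length could be derived for 72344 transcripts, from 298 to 35465 nt with a median of 917 nt. Of those under 500 nt, 10.3% (2035 of 19683) were detected in all 6 libraries, against 61.6% of those of 1000 to 2000 nt and 92.6% (2613 of 2823) of those of 4000 nt and over. A longer transcript collects more counts at the same level. The percentages also depend on which lengths were used, since the highest RPKM had to reach a set minimum. That minimum takes more counts in a longer transcript, so scarce long transcripts were left out more readily than scarce short ones. Lengths were available for 13289 of the 17183 transcripts found in 1 library alone and for 31438 of the 31465 found in all 6. This raises the percentages of the long classes by an amount that was not computed. The transcripts of 4000 nt and over took 36.6% ± 17.3 of the counts (SD, n = 6), at 35.6%, 20.6%, 29.0%, 29.0%, 70.0% and 35.7% in replicates 3, 5, 8, 11, 14 and 15. Outside the dominant transcripts their share was 14.2% in replicate 14 and 5.66% to 10.9% in the other 5 libraries. The mean length per count was 5313 nt in replicate 14 and 2526 to 3164 nt elsewhere, and outside the dominant transcripts 3552 nt and 2026 to 2536 nt.

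The spread of single transcripts between seedlings was measured on 18841 transcripts that passed the filter on low counts. With 1 group, that filter keeps only transcripts that reach about 10 counts in every library, so those that are absent from a seedling are left out. It works on library totals, so in scaled CPM it asks for most in replicate 14, whose TMM factor was lowest at 0.307. The SD of log2 scaled CPM over the 6 libraries had a median of 0.49. It was under 0.25 for 9.86% of the transcripts and over 1 for 7.89%. Counting error alone would give a median SD of 0.11, and it reached the observed SD for 193 transcripts, 1.02%. The common biological coefficient of variation, edgeR's measure of spread beyond counting error, was 0.423. With 1 CPM added, the highest library was less than 2-fold above the lowest for 47.3% of the transcripts and less than 4-fold for 90.7%. Without replicates 11 and 14 the median SD was 0.37 and the coefficient 0.343, over 26323 transcripts. With library totals alone in place of TMM the median SD was 1.01 and the coefficient 0.641.

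The spread was smallest for transcripts of middle abundance. The median SD of log2 CPM fell from 0.62 for transcripts under 1 CPM through 0.49 at 3 to 10 CPM to 0.41 at 30 to 100 CPM (1734 transcripts). Above that it was higher again, at 0.56 for 300 to 1000 CPM (147 transcripts) and 0.69 for 1000 CPM and over (81 transcripts), where counting error alone would give 0.0063. The high end depended on the libraries that stood apart. Without replicates 11 and 14 the median at 1000 CPM and over was 0.37, against 0.29 at 30 to 100 CPM. The low end depended on the filter too. Since the filter asks for most in replicate 14, the 600 transcripts under 1 CPM were in part selected for being relatively high there. Their median SD was 0.51 without replicate 14, 0.65 without replicate 11 and 0.48 without both. Short transcripts varied more than long ones of like abundance. At 3 to 10 CPM the median SD was 0.86 under 500 nt (149 transcripts), 0.65 at 500 to 1000 nt, 0.50 at 1000 to 2000 nt and 0.46 at 2000 to 4000 nt. It was 0.50 at 4000 nt and over. Counting error was alike in these classes, at 0.12, and without replicates 11 and 14 the values in the same classes were 0.62, 0.49, 0.35, 0.30 and 0.38. The fall with length up to 4000 nt was thus present in both, while the class of 4000 nt and over was level with that of 1000 to 2000 nt in all 6 libraries and above it in the 4.

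**Figure D4:**
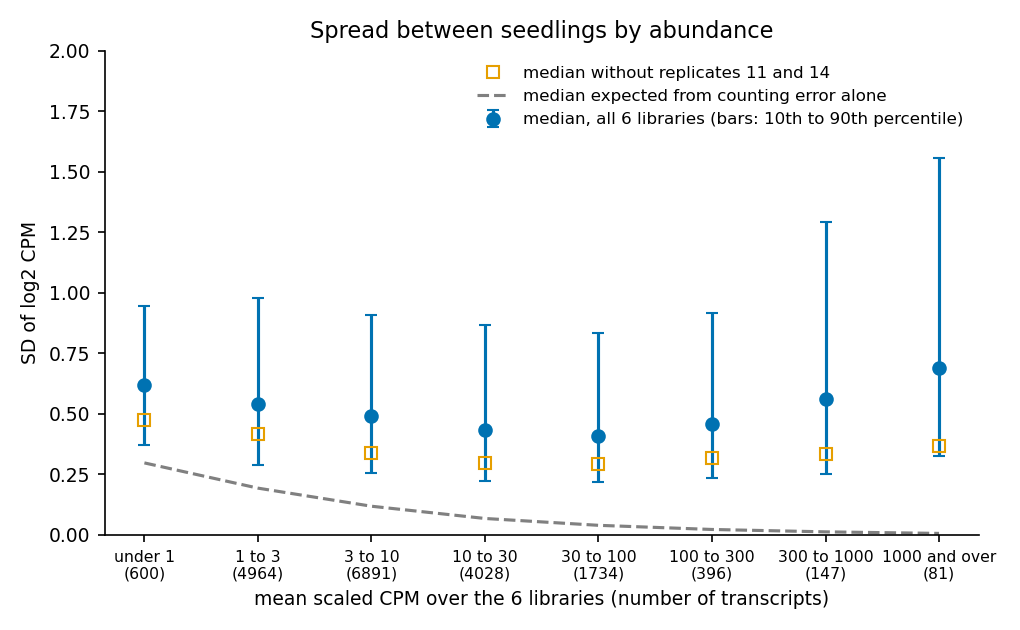
SD of log2 CPM between the 6 Air Control libraries by mean scaled CPM, as the median (circles) with the 10th to 90th percentile (bars), the median without replicates 11 and 14 (open squares) and the median that counting error alone would give (dashed line). The number of transcripts in each class is in brackets, and the circles are lowest at 30 to 100 CPM (0.41) and highest at 1000 CPM and over (0.69).

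Among the 6386 transcripts with a mean of at least 10 CPM, the steadiest was psme_t043911 (1073 nt). It had 29.95, 29.1, 31.0, 28.3, 28.5 and 28.1 CPM in replicates 3, 5, 8, 11, 14 and 15, an SD of log2 CPM of 0.055. The next were psme_t009115 (2890 nt), 1.11-fold apart between its lowest and highest library, and psme_t040104 (1167 nt), at 14.9 to 16.7 CPM, each with an SD of 0.057. All 3 lay within 1.12-fold over the 6 seedlings on this scale. On library totals alone their SDs were 0.93, 0.87 and 0.93, so their evenness holds relative to the bulk of the transcripts, not to the total RNA counted.

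The largest SD, 3.68, was that of psme_t046886 (1010 nt). It had 22.7, 10.1, 8.40, 1893, 709 and 4.30 CPM in replicates 3, 5, 8, 11, 14 and 15, so replicates 11 and 14 were both far above the other 4. The second largest, psme_t007245 (3157 nt), had nearly the same profile, at 22.4, 11.2, 8.42, 1870, 710 and 4.47 CPM. Their counts stood in a ratio of 0.984 to 1.10 in every library, and the files do not say whether reads that match both were counted for each, so their counts are uncertain. The third, psme_t061790 (778 nt), had 121 CPM in replicate 11, 26.1 in replicate 14 and 0.350 to 5.93 in the other 4 libraries. On library totals alone the SDs of the 3 were 3.00, 2.97 and 2.64.

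Pairs of libraries showed the same separation. Spearman's correlation across the 18841 transcripts, which are not independent replicates, had a median of 0.868 over the 15 pairs. It was highest between replicates 5 and 8, at 0.945, and lowest between replicates 3 and 14, at 0.808. The 6 pairs without replicates 11 and 14 had 0.912 to 0.945, and the 9 pairs with either had 0.808 to 0.882. Between replicates 5 and 8, 8.54% of the transcripts were over 2-fold apart, and between replicates 3 and 11, 33.4%. The pair of replicates 11 and 14 was itself 24.7% over 2-fold apart, within the 21.8% to 33.4% of the 9 pairs with either. Replicates 11 and 14 were the 2 highest libraries for 15.5% of the transcripts and the 2 lowest for 17.4%, where the other 14 pairs had 3.79% to 10.9% and 3.87% to 9.81%. Each was also often the single highest library, for 23.9% and 20.8% of the transcripts, or the lowest, for 23.9% and 23.3%. The pair values alone therefore do not show that the 2 moved together, which was not tested. The first principal component of log2 CPM held 41.4% of the variance and placed replicates 11 and 14 on one side of all others. The second held 22.9% and placed replicates 11 and 14 at opposite ends.

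**Figure D5:**
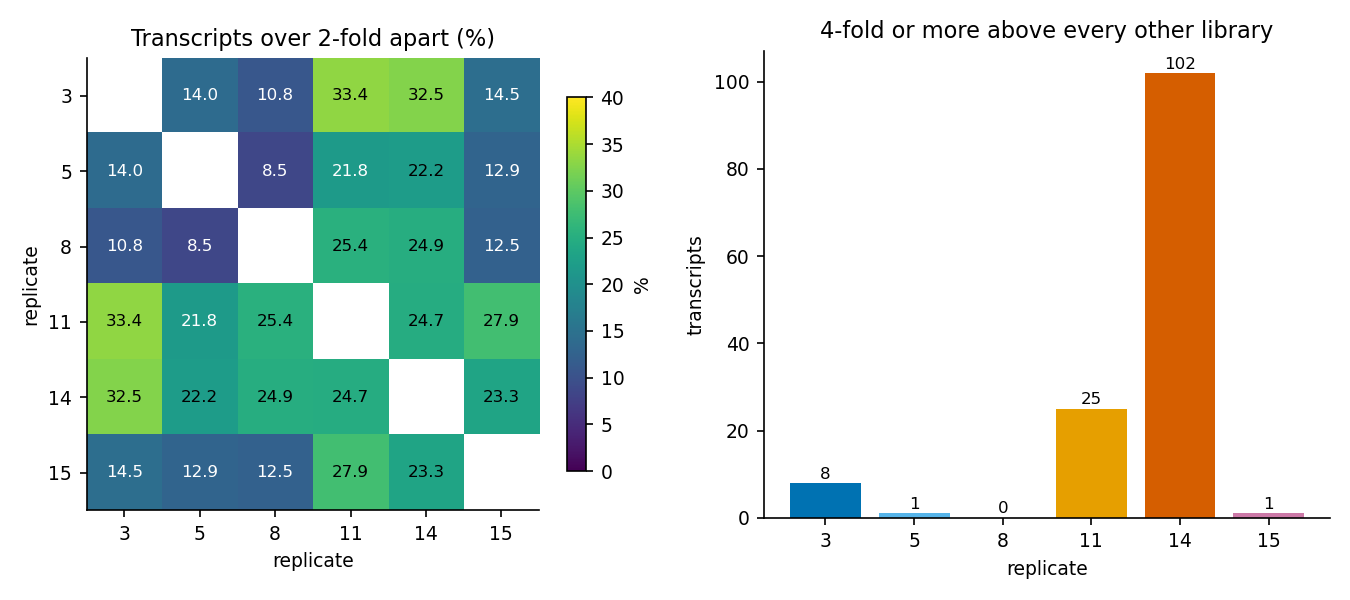
Left, percentage of the 18841 transcripts more than 2-fold apart between each pair of Air Control libraries. Right, number of transcripts at least 4-fold above every other library after TMM scaling, which was 102 in replicate 14, 25 in replicate 11, 8 in replicate 3 and at most 1 in each of the others.

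A seedling could also stand alone for a single transcript. After TMM scaling and with 1 CPM added, 137 of the 18841 transcripts were at least 4-fold higher in 1 library than in every other. Replicate 14 was that library for 102, replicate 11 for 25, replicate 3 for 8 and replicates 5 and 15 for 1 each. The filter tilts this split towards replicate 14, since transcripts high elsewhere but low there were left out more readily. With no filter the total was 225, and its split by library was not computed. The count in replicate 14 also rests on the scaling. On library totals alone it was 5, all among the 102, and the other libraries then had 0 to 21. For replicate 11 it was 21, of which 6 were among its 25, so most of its members changed with the scaling too. The 102 transcripts held 74.6% of the counts of replicate 14, or 2.26% once the 5 dominant ones among them were set aside.

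Over all transcripts, replicates 3, 5, 8 and 15 each had a transcript that was nearly their own. Replicate 3 had 1685 counts of psme_t029623 (1518 nt), 33.0 CPM, where replicate 14 had 14 counts and each of the others at most 3. Replicate 5 had 505 counts of psme_t016553 (2218 nt), 10.8 CPM, where replicate 3 had 12, replicate 15 had 3 and the others 0. Replicate 8 had 1003 counts of psme_t126191 (420 nt), 23.7 CPM, where replicate 5 had 16 and the other 4 had 0. Replicate 15 had 736 counts of psme_t041169 (1138 nt), 14.3 CPM, and no other library had any. At a floor of 3 counts per library, 0.0588 to 0.224 CPM, that level was at least 63.9-fold higher than in any other seedling. In replicates 11 and 14 the transcripts with the largest excess were the dominant psme_t002954 and psme_t000146 described above, which were abundant in every library. After TMM scaling psme_t002954 was 19.8-fold above the next library in replicate 11, or 17.6-fold by share of counts. For psme_t000146 in replicate 14 it was 28.5-fold after TMM scaling but 6.14-fold by share of counts.

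Presence in some seedlings and absence from others was found at appreciable counts. At least 100 counts in 1 library and 0 in another were seen for 265 of the 78329 detected transcripts. Of the 265, 156 were at 0 in 1 library, 53 in 2 and 5 in 5. Replicate 11 had 0 counts for 125 of the 265 and replicate 14 for 100, where the other 4 had 51 to 73. The TMM-scaled library sizes of replicates 11 and 14 were 19187899 and 13389403, against 42390930 to 51436467 in the other 4. The numbers of zeros were not adjusted for that. The highest by mean scaled CPM was psme_t042770 (1100 nt), with 21, 845, 512, 770, 100 and 0 counts in replicates 3, 5, 8, 11, 14 and 15. In scaled CPM it had 0.411, 18.0, 12.1, 40.1 and 7.47 in replicates 3, 5, 8, 11 and 14, so replicate 3 was far below the other 4 in which it was found. Next in scaled CPM was psme_t054801 (871 nt), which had 412 counts in replicate 3 and 468 in replicate 14, at most 13 in replicates 5, 8 and 11, and 0 in replicate 15. In scaled CPM it had 8.07 in replicate 3 and 34.95 in replicate 14. The third, psme_t046453 (1019 nt), had 748 counts in replicate 8 and 437 in replicate 11, 41 in replicate 14, 6 in replicate 5 and 0 in replicates 3 and 15. It had 17.6, 22.8 and 3.06 scaled CPM in replicates 8, 11 and 14. All 3 transcripts were at 0 in replicate 15. By scaled CPM psme_t042770 and psme_t046453 were both highest in replicate 11, and psme_t054801 was highest in replicate 14.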

How the data were processed

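Poly(A) RNA was sequenced from needles of 6 Air Control seedlings, grouped by the source label and numbered by title. The members and lists were chosen with earlier results of these data known. The authors deposited raw counts per transcript, per the file headers as total counts. The authors also deposited linear RPKM values, relative to all counts of the library, per the file headers. CASAVA 1.8.2 appears in the submitters' processing notes. Strand, reference, aligner, counter and the handling of multiply matching reads: not given in the sources used here. Entries that share reads can therefore not be told apart. Library preparation used PrepX kits after FastTrack MAG selection, per the labels' protocols.

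Transcript lengths were derived as counts over RPKM, matched between libraries to within 0.00814% where RPKM was at least 10, and were used where the highest RPKM reached 0.05. Spread was computed with edgeR 4.0.16 (R 4.3.3) from the deposited counts: filterByExpr with minimum count 10, TMM factors, log2 CPM (prior count 2) and an intercept-only dispersion. DESeq2 1.42.0 gave an alternative. Thinning used the hypergeometric expectation (Python 3.11.15). The spread step was tested on simulated counts. All simulated libraries started from 1 set of proportions, so that test does not cover the differences in composition between these libraries. The thinning expectation was compared only with 1 random thinning of the real counts, drawn by the same scheme. No molecular identifiers are mentioned in the labels, so floors of 3 counts cover counting error only.

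Transcripts were named by rule: the 10 highest by mean RPKM and by mean share of counts, the 3 largest and 3 smallest SDs at a mean of 10 CPM or more, per library the largest excess at 100 counts or more, and the 3 highest with 100 counts in 1 library and 0 in another. Alternatives were other detection limits, scalings, filters, prior counts and leaving out libraries. As no name table was used, marker lists were not run.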

Additional observations from a re-analysis of the deposited data

Results flagged for a closer look

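Each measure above was looked at for a library far from its nearest neighbour relative to the range of the 6 values (Dixon's criterion at the 95% level). Of 46 sets of 6 values examined, 14 had such a library, where chance flags about 1 in 20 of sets that were not chosen for their spread. Here 13 sets were transcripts named for their spread, evenness, excess or absence, and 7 of the 14 were among these, so the total cannot be read against that rate. Of the other sets, 3 of 19 measures of a whole library and 4 of 14 transcripts named by their level had such a library. Level was a mean over the 6 libraries, which 1 high library raises. The share of psme_t002954 had a mean of 1.99% and a median of 0.282%, and that of psme_t020372 1.47% and 0.778%. Measures of a whole library also depend on one another, so neither count can be read against the rate of 1 in 20. Of the 14 sets with a library apart, 6 were in replicate 14 and 4 in replicate 11.

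In replicate 14, these were the share of the 10 most abundant transcripts (79.5%), the mean length per count (5313 nt) and the 102 transcripts at least 4-fold above every other library. The shares of psme_t000146 (32.3%) and psme_t020372 (5.24%) and the level of psme_t054801 (34.95 CPM) also stood apart there, the last named for its absence from a library. In replicate 11 it was the shares of psme_t046227 (11.5%) and psme_t002954 (10.4%) and the levels of psme_t046886 (1893 CPM) and psme_t061790 (121 CPM), the last 2 named for their large SD. In scaled CPM psme_t046227 was 1.21-fold above replicate 14, so there replicate 11 did not stand alone.

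The remaining 4 had been named because 1 library exceeded the rest, so their distance is set by that choice: psme_t029623 in replicate 3 (33.0 CPM), psme_t016553 in replicate 5 (10.8 CPM), psme_t126191 in replicate 8 (23.7 CPM) and psme_t041169 in replicate 15 (14.3 CPM). The same choice named psme_t002954 and psme_t000146. What sets replicates 11 and 14 apart was not tested.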

How the results depend on the processing

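No paired analysis was possible because 1 group was described and no groups were compared. The mean number of transcripts detected, 51271, was 40321 at 3 counts, 29216 at 10 counts, 39287 at an RPKM of 0.1 and 17146 at an RPKM of 1. The 31465 detected in all 6 were 19574 at 10 counts and 7886 at an RPKM of 1. Leaving out 1 library gave means of 49978 to 53341 and common sets of 31724 to 35370. The share of the 10 most abundant transcripts ranged from 37.8% to 48.0% when 1 library was left out, and the number holding 50% of the counts from 31.6 to 47.0, against 39.5. After taking out the dominant transcripts, an alternative chosen after seeing the data like that without replicates 11 and 14, they were 9.98% and 445. The median SD, 0.49, was 1.01 with library sizes alone, 0.59 with no filter, 0.65 on log2(RPKM + 1), 0.95 on log2(RPKM + 0.1), 0.37 without replicates 11 and 14, and 0.44 to 0.51 without 1 library. The coefficient of variation, 0.423, was 0.641 with library sizes alone, 0.638 with no filter, 0.464 at a mean of 50 counts, 0.319 as DESeq2's median, 0.343 without replicates 11 and 14, and 0.398 to 0.446 without 1 library. The median Spearman correlation, 0.868, was 0.826 with no filter, 0.929 without replicates 11 and 14, and 0.856 to 0.921 without 1 library. The 137 transcripts 4-fold above every other library were 55 with library sizes alone, 225 with no filter, 1038 at 2-fold, 38 at 8-fold, 53 without replicates 11 and 14, and 128 to 160 without 1 library. Where no construction shows it, the cause was not tested. Depth limits the scarce transcripts, since 3 counts were 0.0583 CPM in replicate 15 but 0.224 CPM in replicate 14.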
